A study of Homo sapiens with 12 samples.

Results

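The replication-dependent histone genes examined here were the protein-coding genes of the count table on chromosome 1 or 6 whose symbol belongs to the H1-1 to H1-6, H2AC, H2BC, H3C or H4C series. This rule uses only names, gene types and positions, and it selected 66 of the 60671 genes in the table. The 66 members comprised 6 H1, 15 H2A, 18 H2B, 13 H3 and 14 H4 genes. On chromosome 6, 34 of them lie in the distal part and 21 in the proximal part of the 6p22 cluster, and on chromosome 1, 9 lie in the 1q21 cluster and 2 at 1q42. A further 2 annotated genes with such symbols were not analysed here.

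Replication-dependent histone genes supply the core histones H2A, H2B, H3 and H4 and the linker histone H1 that package newly replicated DNA, and they are transcribed mainly in S phase. Their mRNAs lack the poly(A) tail of other mRNAs: the 3′ end is a short stem-loop that is bound by SLBP and cut by a machinery that includes the U7 snRNP. NPAT, a substrate of cyclin E-CDK2, activates them at nuclear bodies that form on the clusters, and FLASH (CASP8AP2) links these bodies to 3′-end formation.

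RNA-seq was performed on 3 human leukaemia lines with 4 replicates each, all grown in DMEM with 10% serum and harvested in mid-log phase without further treatment. K562 is the parental chronic myelogenous leukaemia line. K/VP.5 is a clonal K562 derivative with acquired resistance to etoposide, a drug that traps TOP2α on DNA. K562/SSedit-2 is 1 clone of K562 in which CRISPR/Cas9 with homology-directed repair silenced the 5′ splice site that follows exon 19 of TOP2A at some but not all alleles. Each derived line is therefore 1 clone, so a difference between lines and a difference between clones cannot be told apart. The labels do not say whether replicates are separate cultures, and p-values measure only the spread between these samples. The bulk counts also cannot tell apart fewer cells in S phase from less histone mRNA per cell.

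Total counts per library ran from 28981722 to 43648830. TOP2A, the edited gene, was at 402 ± 59.1 CPM (counts scaled to a common library size, mean ± SD, n = 4) in K562. In K562/SSedit-2 it was at 192 ± 16 CPM, a log2 fold change of -1.07 (edgeR quasi-likelihood adjusted p = 1.05e-06), and K/VP.5 had 275 ± 7.50 CPM. Gene counts do not read the edited junction itself. The 8 K562 markers, led by the transferrin receptor TFRC, were counted in every line, with a summed level of 3458 to 4425 CPM per library in K562, 4739 to 5206 in K562/SSedit-2 and 2990 to 3292 in K/VP.5. At an adjusted p below 0.1, 3 of the 8 were higher and 3 lower in K/VP.5, against 26.2% and 26.1% of all tested genes. The log2 fold changes of the 8 there ran from -0.55 to 4.22. In K562/SSedit-2, 5 of the 8 were higher and 0 lower, up to 1.16, against 4.86% and 7.79%. The 7 markers of other cell types summed to 157 to 250.2 CPM per library, most of it from the epithelial gene EPCAM, with means of 129 to 177 CPM, while the means of ALB and MS4A1 were below 0.05 CPM in each line. Of the 4 that could be tested, 3 differed in K/VP.5: CD3D had a mean of 8.34 CPM against 32.8 in K562 (log2 fold change -1.97), COL1A1 22.5 against 2.59 (3.11), and EPCAM a log2 fold change of -0.45. Their part in the results was not tested. K562 replicate 1 stood apart: its counts differed from those of the other K562 replicates with a chi-square of 53.5 to 56.4 per degree of freedom, against 4.82 to 19.5 for all other pairs within a line. Over the members with at least 5 CPM, its median log2 ratio to the mean of the other 3 K562 replicates was 1.01 for H3, 0.93 for H2B, 0.63 for H2A, 0.37 for H1 and 0.02 for H4. Results that it moves are given with and without it.

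The 3′ stem-loop separated H4 from the other families. A stem of 6 paired bases with a loop of 4, starting with GG, was searched within 150 bases after the stop codon in the GRCh38 genome, and 64 of the 66 members had one, all but H2AC11 and H2AC15. All 14 H4 genes carried the stem GGCCCT, and all 50 H1, H2A, H2B and H3 genes with a stem-loop carried GGCTCT. Sites of members whose levels are described further on, chosen to show both stems, are printed with the stem-loop in capitals and 5 flanking bases on each side.
H3C7: ccaaaGGCTCTTTTCAGAGCCaccaa
H2BC9: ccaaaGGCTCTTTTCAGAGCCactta
H1-3: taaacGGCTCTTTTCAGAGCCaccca
H2BC7: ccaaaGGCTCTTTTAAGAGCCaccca
H4C4: ccaacGGCCCTTTTCAGGGCCaccta
H4C3: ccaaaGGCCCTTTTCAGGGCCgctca
H4C14 and H4C15: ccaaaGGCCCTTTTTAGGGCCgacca
The first of these stem-loops, with a TTTC loop, was shared by 38 members, while H4C14, H4C15, H4C9 and H4C12 were the 4 genes that carried the H4 stem with a TTTT loop.

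Promoter windows from 250 bases before to 50 after the start site were taken from RefSeq (GRCh38) and matched 61 of the 66 members. Short promoter motifs were searched on both strands by exact match. CCAAT was present in 52 of the 61 windows, against 35.7% of 27305 promoters of all genes, and TATAAA in 39, against 12%. The octamer ATTTGCAT, the letters read by the OCT1 factor, was found in 11 of 14 H2A and 14 of 18 H2B windows, in none of the H1, H3 and H4 windows, and in 1.80% of all promoters. AAACACA, known from H1 promoters, was in all 6 H1 windows and in 5.76% of all promoters, and GGTCCG, the core of the element read by HINFP in H4 promoters, was in 11 of 12 H4 windows and in 11.2% of all promoters. Many H2A and H2B genes start close together on opposite strands, and the windows of such neighbours overlap almost wholly. A motif in the overlap counts for both genes, so the octamer, CCAAT and TATAAA counts are of windows, not of separate sites. The octamer counts of H2A and H2B are therefore not separate results. Motifs can overlap, as in the H3C7 promoter printed next, where GGTCCG on the other strand overlaps CCAAT.

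The 150 bases before the start are printed for the pair of genes that lost their counts in K/VP.5, H3C7 (chr6:26250636-26250785, minus strand) and H2BC9 (chr6:26251464-26251613, plus strand), and for 2 H4 genes with different behaviour in that line, H4C5 (chr6:26204460-26204609, plus strand) and H4C4 (chr6:26189113-26189262, minus strand). Capitals mark the motifs named above.
H3C7 promoter: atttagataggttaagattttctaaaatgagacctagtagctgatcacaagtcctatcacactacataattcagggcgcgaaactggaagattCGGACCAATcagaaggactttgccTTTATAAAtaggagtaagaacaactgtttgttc
H2BC9 promoter: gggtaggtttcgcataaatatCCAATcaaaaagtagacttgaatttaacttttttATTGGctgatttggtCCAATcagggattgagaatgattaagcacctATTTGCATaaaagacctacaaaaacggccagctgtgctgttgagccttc
H4C5 promoter: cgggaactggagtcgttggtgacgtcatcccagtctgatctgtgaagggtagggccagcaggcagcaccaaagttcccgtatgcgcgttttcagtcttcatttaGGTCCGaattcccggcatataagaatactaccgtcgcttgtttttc
H4C4 promoter: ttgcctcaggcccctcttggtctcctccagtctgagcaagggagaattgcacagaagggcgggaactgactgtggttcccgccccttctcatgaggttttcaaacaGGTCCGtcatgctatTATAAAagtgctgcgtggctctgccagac
The H3C7 and H2BC9 stretches both hold CCAAT. H2BC9 has the octamer as well, H3C7 has TATAAA and GGTCCG, both H4 stretches hold GGTCCG, and the H4C4 stretch holds TATAAA.

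Members were either well expressed or nearly silent, with a gap between the groups. The level per length, as CPM per kb of exon over the 12 samples, was 1.06 or less in 22 members and 3.65 or more in 44, with a median of 366 in the latter. All 22 members of low level lie on chromosome 6, whereas the 11 on chromosome 1 were all expressed. A stem-loop was present in 21 of the 22 genes of low level and in 43 of the other 44, and CCAAT was in 20 of 21 matched windows of the low group and 32 of 40 of the other. Windows of neighbours overlap here too, as for H2AC7 in the low group and H2BC7 in the other, so the same CCAAT can count in both groups. The highest levels as means over the 12 samples were 2239.9 CPM per kb for H4C5, 1999 for the linker histone gene H1-2, 1693 for H4C2, 1495 for H4C12 and 1472 for H4C11. These levels divide by all annotated exons, which for some genes run on past the stem-loop. They amount to 1878 bases for H4C14 and H4C15 and 2163 for H4C8, against 412 for H4C5. Longer annotation lowers the level per length, so this ranking, and ratios of such levels between genes, depend on the annotation. The order differed between lines: in K562 alone H1-2, at 1922 CPM per kb, was above H4C5 at 1791, and H1-4, at 1497, above H4C2 at 1459. H1-2 had 1405 ± 152 CPM in K562, 1448 ± 117 in K562/SSedit-2 and 1531 ± 105 in K/VP.5 (SD, n = 4 each), and neither derived line passed the test against K562 (adjusted p = 0.809 and 0.232). Without K562 replicate 1 it was higher in K/VP.5 by 0.16 on the log2 scale (adjusted p = 0.0832).

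**Figure D1:**
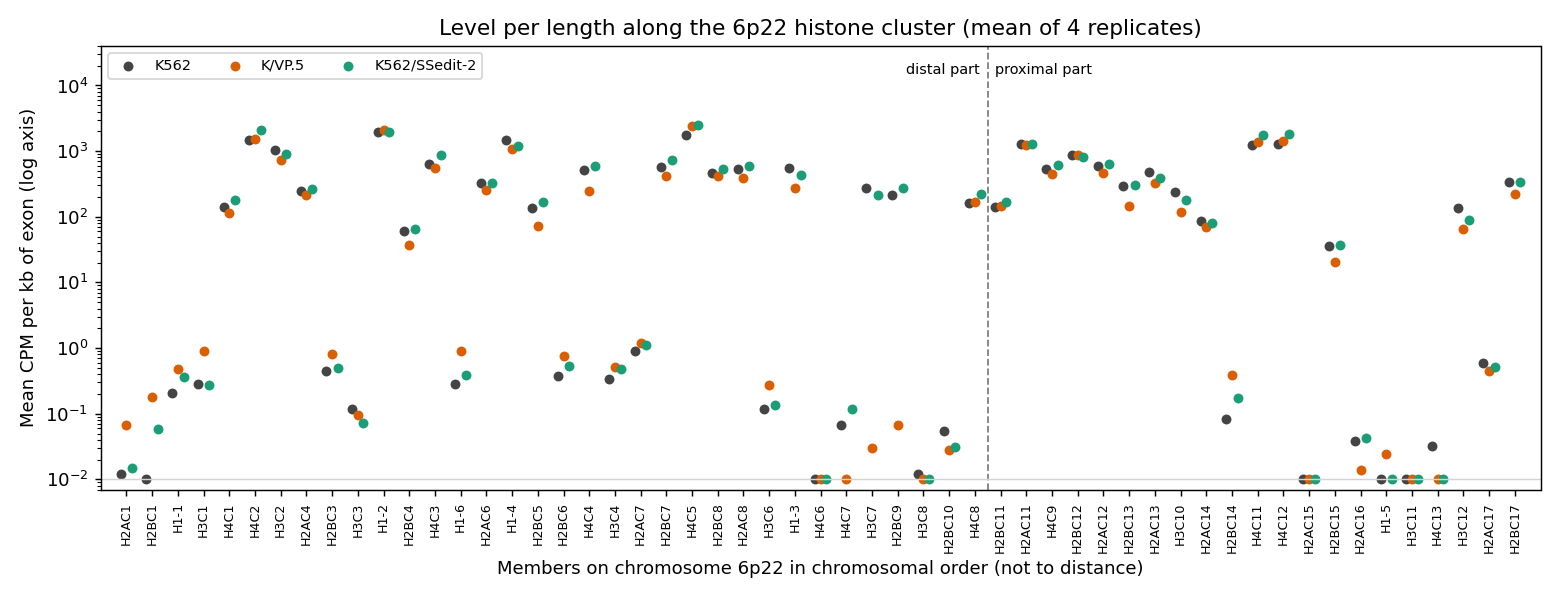
Level per length (mean CPM per kb of exon over 4 replicates, log axis, values under 0.01 drawn at 0.01) of the 55 members on 6p22 in chromosomal order, for the 3 lines. Members lie either above 3 CPM per kb or near 1 and below, and H3C7 and H2BC9 drop from the upper to the lower group in K/VP.5.

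Low members lay among expressed ones along 6p22. In the distal part, H4C6 and H4C7 (0 to 5 counts per library) lie between the expressed H1-3 and H3C7, and H3C8 and H2BC10 (0 to 3 counts) lie between H2BC9 and H4C8. In the proximal part, H2AC16, H1-5, H3C11 and H4C13 form a run of 4 genes within 34.6 kb between H2BC15 and H3C12, with 0 to 3 counts in every library. H4C6, H2AC15 and H3C11 had no count in any of the 12 libraries, and a count of 0 allows up to 3 counts, or 0.0691 to 0.102 CPM depending on the library.

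Of the 13 head-to-head pairs of members, 12 are an H2A and an H2B gene whose starts lie 194 to 251 bases apart, and H3C7 and H2BC9 are the other, at 979 bases. Levels within a pair ranged from even to very uneven. As means over the 12 samples, H2BC8 and H2AC8 had 469.6 and 505 CPM per kb, a ratio of 1.08, and H3C7 and H2BC9 had 165 and 163. In contrast, H2BC7 had 578 and its neighbour H2AC7 1.06 CPM per kb, a ratio of 543. H2BC17 exceeded H2AC17 by 578 times and H2AC14 exceeded H2BC14 by 368 times per length, while H2BC15 had 133 CPM and H2AC15 no count. For H3C7 and H2BC9 the order differed by line. They had 278 and 211 CPM per kb in K562 and 217 and 276 in K562/SSedit-2, and were near 0 in K/VP.5. The stretches between the starts are printed for the most even H2A/H2B pair and for H2AC7/H2BC7, on the plus strand of chromosome 6, at chr6:26216689-26216920 and chr6:26199294-26199515.
H2BC8 to H2AC8: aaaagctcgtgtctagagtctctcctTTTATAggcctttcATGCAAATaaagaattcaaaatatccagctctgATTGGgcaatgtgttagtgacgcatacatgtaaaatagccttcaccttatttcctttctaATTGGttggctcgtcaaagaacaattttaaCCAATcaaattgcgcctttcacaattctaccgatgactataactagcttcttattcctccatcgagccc
H2AC7 to H2BC7: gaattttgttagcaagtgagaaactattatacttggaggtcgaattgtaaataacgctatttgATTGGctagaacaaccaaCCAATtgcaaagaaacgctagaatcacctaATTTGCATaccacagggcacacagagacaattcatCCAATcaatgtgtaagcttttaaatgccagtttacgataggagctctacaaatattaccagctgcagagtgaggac
Both stretches hold the octamer and CCAAT, and the first also holds TATAAA.

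**Figure D2:**
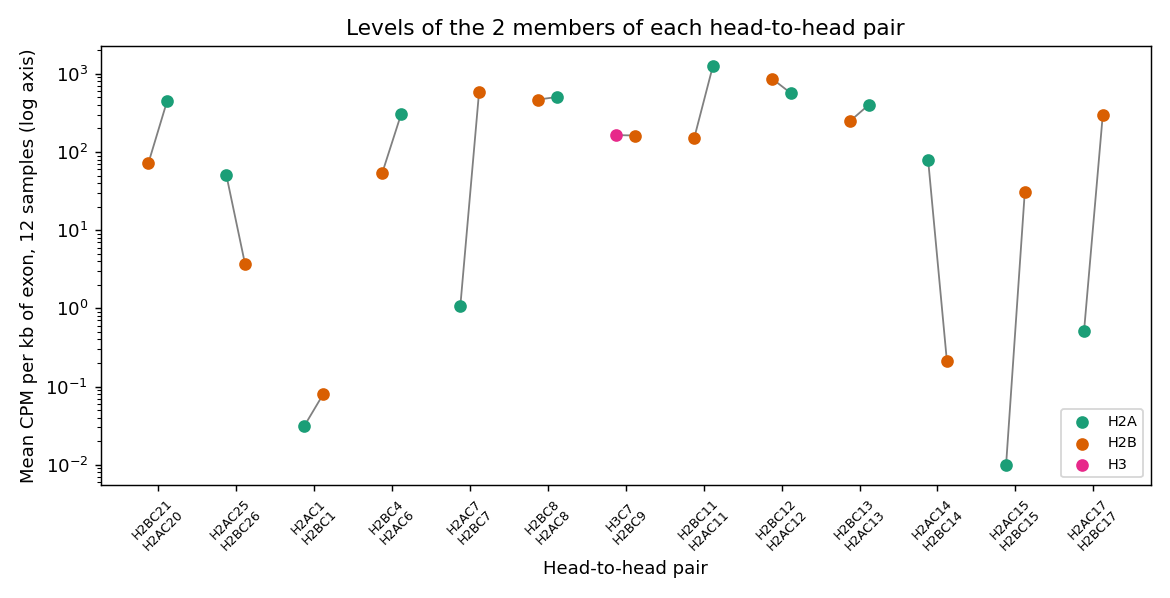
Level per length (mean CPM per kb of exon over the 12 samples, log axis, 0 drawn at 0.01) of both genes of each of the 13 head-to-head pairs, left point for the gene on the minus strand, coloured by family. On these means the pairs span ratios from about 1 (H3C7/H2BC9, H2BC8/H2AC8) to over 500 (H2AC7/H2BC7, H2AC17/H2BC17).

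Some members cannot be separated by sequence. H4C14 and H4C15 share 100% of their 100-base exon words, H3C14 and H3C15 at least 99.1% and H4C11 and H4C12 at least 90.7%, and the counts of each pair were nearly the same in every library, with ratios from 0.937 to 1.07. Their separate counts are uncertain, as reads that fit both copies may have been counted at each or split, and each pair is best read as 1 measurement. H2AC13 and H2AC14 share 58.8 to 61.8% and H2AC17 overlaps H3C12 in position, so their counts are uncertain as well.

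Between K/VP.5 and K562, 53 members could be tested with edgeR's quasi-likelihood test (Benjamini-Hochberg adjusted p below 0.1 over 18626 genes), and the other 13 had too few counts. In K/VP.5, 10 members were higher and 22 lower, against 26.2% and 26.1% of all tested genes. Past 2-fold as well were 5 higher and 6 lower members, against 8.98% and 6.66% of all genes. All 5 of these higher members, and 6 of the 10, had means below 1 CPM in K562, and all but H2BC6 passed the filter on low counts partly or, for H3C1, only through K/VP.5, so nothing is read from the number of rises. The median log2 fold change of the 53 members was -0.23, against 0.01 over all genes, and it was the same with H3C7, nearly without counts in K/VP.5, set to its bound. Without K562 replicate 1 the counts were 16 higher and 19 lower members, against 25.9% and 26.5% of all genes, and the median was -0.06. Of the 44 tested members with a mean of at least 5 CPM, 22 fell and 4 rose, and without K562 replicate 1 these numbers were 19 and 9. The 9 tested members below 5 CPM had 6 rises and 0 falls. The shares of all genes at 5 CPM or more are not given here, so the 44 members have no matching background.

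H3C7 and H2BC9, which encode H3 and H2B, were the members that differed most. H3C7 (chr6:26250142-26250635) had 262, 128, 82.2 and 75.5 CPM in K562 and 124, 127, 93.1 and 83.9 in K562/SSedit-2, but only 1, 0, 0 and 1 counts in the 4 libraries of K/VP.5. Taking 3 counts per library as the floor, its mean level in K/VP.5 was at least 1598-fold lower than in K562 (edgeR quasi-likelihood adjusted p = 1.82e-10) and at least 1246-fold lower than in K562/SSedit-2. H2BC9 (chr6:26251614-26252075) had 147, 84.9, 73.2 and 85.2 CPM in K562 and 141, 139, 94.0 and 137 in K562/SSedit-2, with 4, 1, 0 and 0 counts in K/VP.5. The fitted log2 fold change of H2BC9 in K/VP.5 was -11.30 ± 0.41 (SE, adjusted p = 1.56e-12), a value whose size depends on the prior count. For both genes, the K/VP.5 samples lay below every other sample, and the same was true without K562 replicate 1.

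The expressed members on either side of H3C7 and H2BC9 were counted in K/VP.5. On one side H1-3, 15.2 kb away, had 209.7 ± 15.6 CPM there, against 434 ± 86.6 in K562 (log2 fold change -1.05), and on the other H4C8, 25.5 kb away, had 368 ± 33.8 CPM, against 354 ± 67.2 in K562. The members between these 4, H4C6, H4C7, H3C8 and H2BC10, had at most 5 counts in any library of any line. Whether the DNA of the H3C7 and H2BC9 genes is intact in K/VP.5 was not tested, as only RNA was counted.

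**Figure D3:**
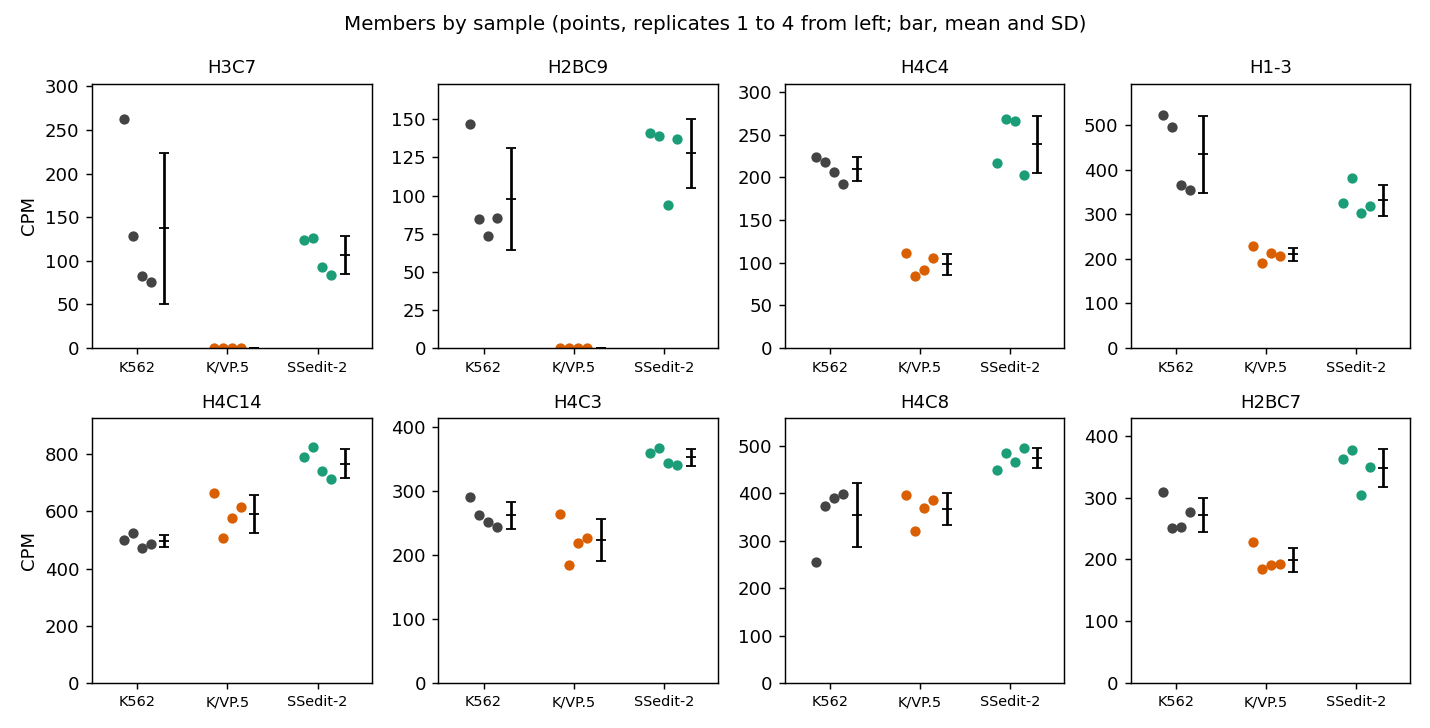
CPM of 8 members in each of the 12 samples (points, replicates 1 to 4 from left to right) with the mean and SD of each line (bars, n = 4). H3C7 and H2BC9 lie near 0 in K/VP.5, H4C4 and H1-3 are lowest there, and the H4C14, H4C3 and H4C8 samples of K562/SSedit-2 lie above all K562 samples.

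Among the other falls in K/VP.5, H4C4 and the linker histone gene H1-3 were near 2-fold with separated groups. H4C4 had 224, 218, 207 and 192 CPM in K562, 217, 268, 267 and 203 in K562/SSedit-2 and 111, 84.8, 91.4 and 105 in K/VP.5. The K/VP.5 samples lay below all others (log2 fold change against K562 -1.10 ± 0.10, SE, adjusted p = 2.15e-07). H1-3 had 522, 495, 365 and 354 CPM in K562 and 229, 191, 213 and 205 in K/VP.5, again without overlap (-1.05 ± 0.12, adjusted p = 1.58e-06). For each of these 4 genes the exact permutation test of 4 against 4 samples gave a two-sided p = 0.0286, the smallest it can give.

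Other H2B and H3 genes fell in K/VP.5 with smaller values once K562 replicate 1 was left out. H2BC13 had 211, 121, 99.1 and 105 CPM in K562 and 74.0, 61.6, 63.4 and 64.0 in K/VP.5 (-1.03 ± 0.19, adjusted p = 0.000297), and without that library -0.74. H3C10 fell by 0.98 ± 0.22 on the log2 scale (adjusted p = 0.00162) and H2BC5 by 0.89 ± 0.20 (adjusted p = 0.0016), with values of -0.68 and -0.63 without it. H3C12, at 242, 89.5, 61.8 and 70.4 CPM in K562 and 65.5, 47.2, 52.9 and 61.7 in K/VP.5, had overlapping groups, and its log2 fold change of -1.03 ± 0.32 (adjusted p = 0.0137) was -0.40 without K562 replicate 1. In the same way H2BC4 went from -0.73 to -0.32, H2BC18 from -0.65 to -0.37 and H2BC17 from -0.60 to -0.39, and H2AC12, H2AC13 and H3C2 no longer passed the test.

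The members that rose in K/VP.5 most in fold had few counts. H1-6, a linker histone gene known for its expression in testis, had 40, 17, 13 and 23 counts in K/VP.5 against 7, 10, 9 and 6 in K562 (log2 fold change 1.67 ± 0.35, adjusted p = 0.000862), while H3C1 had 27, 15, 11 and 13 against 4, 7, 6 and 6. H3C1 passed the filter only through its K/VP.5 samples, so its call as higher there followed from the filter and is given as counts. H3C6, H1-1, H2BC6 and H2BC3 also rose, by 1.21, 1.20, 1.01 and 0.90 on the log2 scale, from means below 1 CPM in K562. H1-6, H3C6, H1-1 and H2BC3 were kept by the filter in part through the counts of the line where they are higher, which partly fixed their direction. Of expressed genes, H2AC25 at 1q42 had 81.5, 87.6, 76.0 and 67.0 CPM in K562 and 121, 88.5, 103 and 113 in K/VP.5 (0.44 ± 0.11, adjusted p = 0.00369). H4C5 rose by 0.44 ± 0.13 (adjusted p = 0.0117), and by 0.27 without K562 replicate 1, and the copies H4C14 and H4C15 by 0.25 and 0.27. Without that library 5 more expressed members passed as higher, among them H2BC11 at 0.47 (adjusted p = 0.00623), H2BC12 at 0.35 (adjusted p = 0.00538) and the copies H3C14 and H3C15 at 0.27 and 0.24.

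By family, 8 of 15 tested H2B genes fell and 2 rose in K/VP.5, where 26.1% of all genes fell and 26.2% rose, with a median log2 fold change of -0.49 (-0.32 without K562 replicate 1). Of 12 H2A genes 4 fell and 1 rose, of 10 H3 genes 4 fell and 2 rose, of 11 H4 genes 4 fell and 3 rose, and of 5 H1 genes 2 fell and 2 rose. With near-identical copies taken as 1 measurement, 4 of 9 H4 measurements fell and 2 rose, and 4 of 9 H3 measurements fell and 2 rose. All risers of H1, H2B and H3 had means below 1 CPM in K562, and all but H2BC6 passed the filter partly or, for H3C1, only through K/VP.5. Without K562 replicate 1, 2 H2A genes fell and 2 rose, 3 H3 genes fell and 4 rose, and 8 H2B genes fell and 4 rose. The 4 H3 genes that rose then include the copies H3C14 and H3C15.

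**Figure D4:**
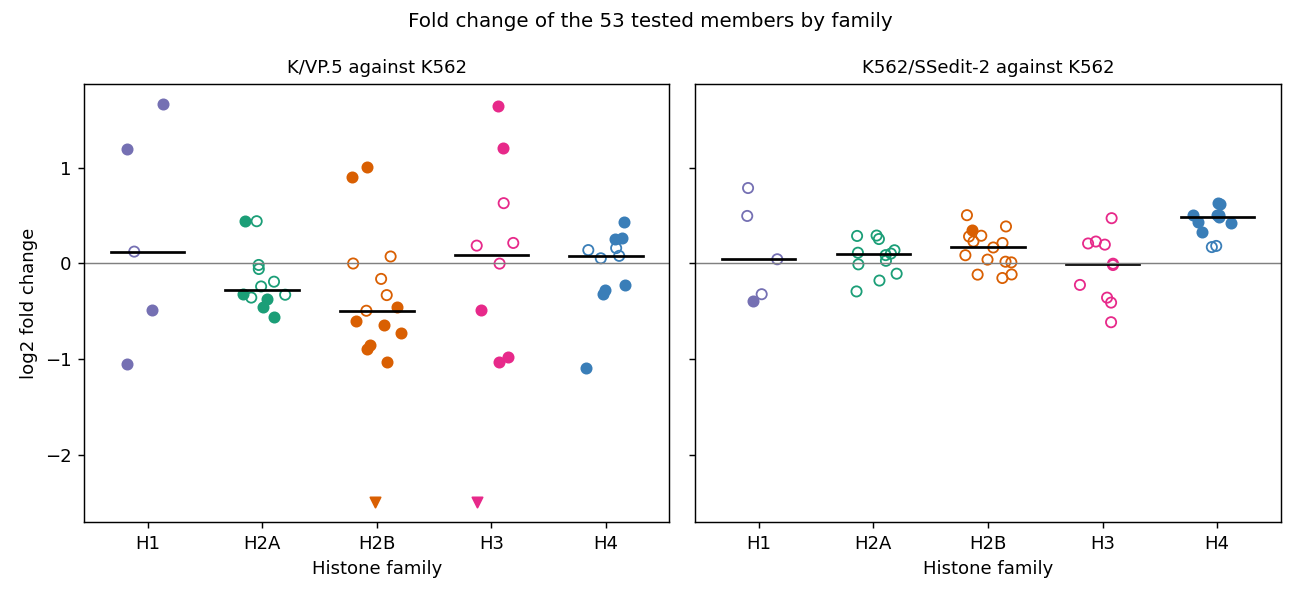
Log2 fold change of the 53 tested members by family, against K562, for K/VP.5 (left) and K562/SSedit-2 (right), filled where the adjusted p is below 0.1, with the family median as a bar. The 2 triangles are H2BC9 and H3C7, drawn at the lower edge, and on the right the 11 H4 genes all lie above 0.

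In K562/SSedit-2, 10 members rose and 1 fell against K562, compared with 4.86% higher and 7.79% lower over all tested genes. With a median of 0.17 (all genes -0.01), or 0.30 without K562 replicate 1, the members differed by less than 2-fold throughout. None passed 2-fold with edgeR, DESeq2 or limma, against 2.06% of all genes in either direction with edgeR, and the largest log2 fold change was 0.79 for H1-1 (adjusted p = 0.17). At an unadjusted p below 0.05, 14 members differed. Of the 10 that rose, 9 were H4 genes, out of 11 H4 genes tested, and the other was H2BC7. With the copies H4C14/H4C15 and H4C11/H4C12 each taken as 1 measurement, 7 of 9 H4 measurements rose. DESeq2 and limma also gave 9 higher H4 genes. The numbers of the replicates pair these 2 lines, and with the replicate as a block 13 members rose and 2 fell, against 6.35% and 10.1% of all genes in that fit, adding H2AC20, H2AC25 and H2BC9 as higher and H1-4 as lower. No H3 gene passed, with 0 at an unadjusted p below 0.05 and 0 with DESeq2 and limma, and no H2A gene, with 1, 1 and 0. For H2A this depends on the setting, as 2 genes passed with the block and 4 of 12 without K562 replicate 1.

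The H4 genes that rose in K562/SSedit-2 lie at 6p22 and 1q21. H4C14 at 1q21, read with its copy H4C15, had 501, 523, 473 and 485 CPM in K562 and 791, 823, 741 and 711 in K562/SSedit-2 (log2 fold change 0.63 ± 0.08, adjusted p = 7.28e-05). H4C3, in the distal part of 6p22, had 290.2, 261, 251 and 244 against 359, 367, 343 and 340.3 (0.43 ± 0.09, adjusted p = 0.00668). H4C12, with its near copy H4C11 in the proximal part, had 520.1, 489, 474 and 477 against 681, 775, 690.5 and 647 (0.51 ± 0.09, adjusted p = 0.0015). In all 3 cases every K562/SSedit-2 sample lay above every K562 sample.

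H4C2, H4C5, H4C8 and H4C1 rose as well, by 0.51, 0.48, 0.42 and 0.33 on the log2 scale, with adjusted p-values of 0.019, 0.0321, 0.0302 and 0.0311. In H4C2, H4C5 and H4C8, K562 replicate 1 was the lowest sample (421, 506 and 255 CPM), and without it they rose by 0.39, 0.34 and 0.29. H4C4 and H4C9, at 0.18 ± 0.10 and 0.17 ± 0.10, did not pass the test (adjusted p = 0.31 and 0.312). Without K562 replicate 1 the 9 H4 genes were still called, but 24 members in all were higher, against 9.56% of all genes, and 11 of the 15 H2B genes were among them. The counts of H2A and H2B genes therefore rest on that library, and the difference between families was not tested.

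RN7SL1, the 7SL RNA of the signal recognition particle and like the histone mRNAs without a poly(A) tail, also rose in K562/SSedit-2, as the 1 gene of its list that did. It had 25582 ± 3334 CPM in K562 and 36129 ± 5497 in K562/SSedit-2 (log2 fold change 0.50 ± 0.13, adjusted p = 0.0302), and 23639.8 ± 4635 in K/VP.5. Of the 14 tested of 29 listed RNAs without a poly(A) tail, 1 rose and 3 fell in K562/SSedit-2, RNU1-1, RNU4-1 and VTRNA1-3, against 4.86% and 7.79% of all genes, with a median of -0.27. Of the list, 9 RNAs were at 0 in all K562 libraries, RN7SK and RMRP among them, and the list summed to 18583 to 41007 CPM per library. The part that recovery of RNA without a poly(A) tail has in the histone counts was not tested, and how mRNA was selected is not given in the sources used here.

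H2BC7 had 309.7, 250.4, 252 and 277 CPM in K562 and 362, 377, 304 and 349.9 in K562/SSedit-2 (0.35 ± 0.09, adjusted p = 0.0216), with groups that overlap by 1 sample each, and it fell in K/VP.5 by 0.45 ± 0.09 (adjusted p = 0.000524). H1-3 was the 1 member that fell in K562/SSedit-2, at 325, 382, 302 and 317 CPM against 522, 495, 365 and 354 in K562 (-0.39 ± 0.12, adjusted p = 0.0509). That call was lost without K562 replicate 2, without K562/SSedit-2 replicate 1, 3 or 4, and when K562 and K562/SSedit-2 were fitted without K/VP.5 (adjusted p up to 0.171). Its log2 fold change stayed below 0 in every setting, from -0.47 to -0.29.

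Set directly against K/VP.5, K562/SSedit-2 had 26 members higher and 4 lower, against 26.2% and 27.8% of all genes, and 5 higher and 2 lower past 2-fold, against 6.2% and 9.62%. H3C7, H2BC9, H4C4, H2BC5 and H2BC13 were higher in K562/SSedit-2 by more than 2-fold, the last 3 by 1.28, 1.18 and 1.07 on the log2 scale, and H3C1 and H1-6, both at few counts, were lower by more than 2-fold, which for H3C1 followed from the filter and for H1-6 was partly fixed by it. The other 2 lower members, H2BC6 and H3C6, also had few counts. By family, 10 of 11 H4 genes and 9 of 15 H2B genes were higher. With near-identical copies taken as 1 measurement, 8 of 9 H4 measurements were higher. In the model without K562 replicate 1, 34 members were higher and 4 lower, against 30.2% and 28.8% of all genes. Of the H2A genes 8 were then higher, against 4 with that library, and of the H3 genes 4, against 2. Since this comparison shares its samples with the 2 others, its counts are not separate evidence.

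The members together took 1.46 ± 0.195% of all counts in K562, 1.62 ± 0.132% in K562/SSedit-2 and 1.36 ± 0.128% in K/VP.5 (SD, n = 4 each), with ranges that overlap. The summed level of the H4 genes was 3998 to 4786 CPM in K562, 5753 to 6601 in K562/SSedit-2 and 4161 to 5392 in K/VP.5, so K562/SSedit-2 did not overlap with the others. For H2B the sum was 1741 to 3616 CPM in K562, with K562 replicate 1 the highest, 1999 to 2783 in K562/SSedit-2 and 1566 to 1971 in K/VP.5. H1, H2A and H3 sums overlapped between all lines. Reads at near-identical copies may enter such sums more than once.

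**Figure D5:**
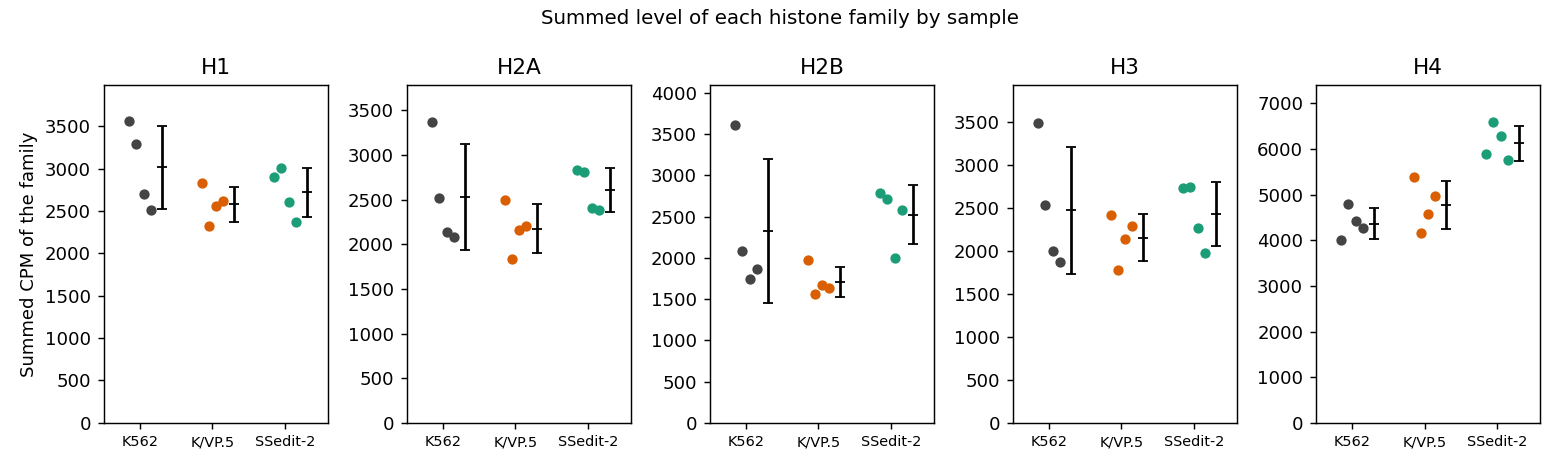
Summed CPM of the members of each family in each of the 12 samples (points, replicates 1 to 4 from left to right), with the mean and SD of each line (bars, n = 4). The 4 K562/SSedit-2 samples have the highest H4 sums, and K562 replicate 1 has the highest K562 sum in every family but H4.

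SLBP, which binds the stem-loop, was lower in K/VP.5 than in either other line. It had 221, 251, 222 and 211 CPM in K562, 221, 220.4, 206 and 209 in K562/SSedit-2 and 141, 119, 141 and 146 in K/VP.5, where the samples lay below all others. It fell in K/VP.5 by 0.73 ± 0.07 on the log2 scale (adjusted p = 4.74e-07) and was at -0.08 ± 0.07 in K562/SSedit-2 (adjusted p = 0.575). NPAT fell in K/VP.5 by 0.52 ± 0.18 (adjusted p = 0.0252), and by 0.24 without K562 replicate 1, which had 46.8 CPM against 23.7 to 25.4 in the other K562 samples. Without that library NPAT was also higher in K562/SSedit-2, by 0.28 (adjusted p = 0.0513), against -0.02 with it. CASP8AP2 fell by 0.31 ± 0.07, while HINFP, which binds H4 promoters, rose by 0.60 in K/VP.5.

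Of the 30 listed factors of histone transcription, 3′-end formation and decay, all tested, 6 rose and 11 fell in K/VP.5, against 26.2% and 26.1% of all genes. Besides SLBP, the largest falls were NCBP2, a cap-binding subunit, by 0.67 and TUT7, a uridylyl transferase, by 0.64, and besides HINFP the largest rises were CPSF3, the endonuclease that cuts histone pre-mRNA, by 0.44 and UPF1, a helicase of mRNA decay, by 0.32. In K562/SSedit-2, where 4.86% of all genes rose and 7.79% fell, 1 of the 30 rose, NCBP2 by 0.22, and 2 fell, FIP1L1 by 0.27 and CPSF1 by 0.20.

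Histone variants and other histone genes outside these clusters were tested as a separate list, which includes H2AX as well as genes expressed outside S phase such as H3-3A and H3-3B. Of 9 tested of 13 listed, H2AZ1 and H2AZ2 fell in K/VP.5, by 0.70 and 0.32, and H3-3B rose by 0.30, and in K562/SSedit-2 H3-3A rose by 0.28 (adjusted p = 0.098). Of the 25 histone chaperones and assembly factors, 5 rose and 5 fell in K/VP.5, shares below the 26.2% and 26.1% of all genes, with CABIN1 at 0.37 and NAP1L4 at -0.49. In K562/SSedit-2, 3 rose and 4 fell, against 4.86% and 7.79% of all genes, with ASF1A at 0.27 and TONSL at -0.33.

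Among 40 genes of S phase and DNA replication, SLBP included, 14 rose and 7 fell in K/VP.5, against 26.2% and 26.1% of all genes, with a median of 0.04. GINS2 rose by 0.67, RFC3 by 0.57 and GINS3 by 0.50, and RRM1, a ribonucleotide reductase subunit, fell by 0.77. In K562/SSedit-2, 2 of the 40 rose, near the 4.86% of all genes, PRIM1 by 0.27 and CDC6 by 0.24, with a median of 0.01. The share of cells in S phase was not measured here.

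The 6p22 cluster also holds other protein-coding genes between the first and last member. Of 20 such genes 15 could be tested, and in K/VP.5 3 rose (ZNF391, PRSS16 and a gene without a symbol, by 0.76, 0.42 and 0.79) and 7 fell, against 26.2% and 26.1% of all genes, with a median of -0.17. The butyrophilin genes BTN3A1 and BTN3A3, which lie between the distal and proximal histone genes, fell by 1.59 and 1.29 on the log2 scale, BTN3A3 from below 1 CPM. In K562/SSedit-2 none of the 15 passed the edgeR test, nor the DESeq2 or limma test, and 3 had an unadjusted p below 0.05.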

How the data were processed

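The authors mapped paired-end reads to GRCh38 with HISAT2 and deposited raw counts per Ensembl gene, made with featureCounts (both also named in the submitters' processing notes). Strand and multi-mapping settings, and how RNA was selected, are not given in the sources used here, and they bear on genes with copies or overlaps. Of 60671 gene IDs, 60401 were matched to GENCODE 44. Total counts were 28981722 to 43648830 per library. Genes were kept with edgeR's filterByExpr (minimum count 10), scaled by TMM and tested in 1 model of the 3 lines with edgeR 4.0.16's quasi-likelihood test (R 4.3.3), with Benjamini-Hochberg adjustment over 18626 genes and a threshold of 0.1. DESeq2 1.42.0 and limma 3.58.1 were alternatives. Level per length is the TMM-scaled CPM divided by merged exon length. Single genes were also compared by an exact permutation test (scipy 1.17.1). The fitting was tested on simulated data.

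Named members were the up to 8 in each direction and comparison with the largest fold change past the threshold, the 5 of highest level per length and partners of head-to-head pairs, plus listed genes by the same rule with up to 3 per direction. Members named in the text beyond these, such as H4C1, H4C9, H2BC7, H2BC17 and the uneven head-to-head pairs, were chosen after their values were seen. Members and gene lists were chosen with earlier results of these data known. Replicates of equal number deviated together between K562 and K562/SSedit-2 over all genes (correlation 0.135 to 0.292 for the 4 numbers). In the 2 other comparisons not all 4 correlations were over 0.1, the limit set for pairing. The pairing comes from these correlations and not from the labels.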

Additional observations from a re-analysis of the deposited data

Results flagged for a closer look

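In 8 of 89 sets of 4 samples of 1 line, 1 sample of a named member lay far from the other 3 by Dixon's criterion, which chance meets in about 1 in 20 sets. K562 replicate 1 was that sample in 7 of the 8, high each time. It had 147 CPM for H2BC9 against 73.2 to 85.2 in the other K562 replicates, 242 for H3C12 against 61.8 to 89.5, and 179 for H2BC5 against 88.5 to 103. It also had 312 CPM for H2BC4 against 115 to 140.0, 323 for H2BC18 against 157 to 181, 38.1 for H2BC26 against 14.2 to 17.4, and 440.4 for H2AC13 against 155 to 197. The eighth was K562/SSedit-2 replicate 3 for H2BC9, low at 94.0 CPM against 137 to 141.

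The effects against K562 differed between the derived lines by over 2-fold in 7 members, tested as K562/SSedit-2 against K/VP.5 with edgeR's quasi-likelihood test. The log2 difference was 12.57 for H3C7 and 11.69 for H2BC9, both near 0 counts in K/VP.5, so that these fitted sizes depend on the prior count. It was 1.28 for H4C4, 1.18 for H2BC5 and 1.07 for H2BC13. For H3C1 and H1-6, which had 40 counts or fewer in every library, it was -1.66 and -1.18. H3C1 passed the filter on low counts only through K/VP.5, which fixed its direction.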

How the results depend on the processing

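Of the repeats of the totals of called members and of the medians over all tested members, 132 stayed within the limits set (1.5 times for a total) and 3 did not. Counts by family and direction moved more without K562 replicate 1, as given with those results. In K562/SSedit-2 against K562, 22 members passed without the filter on low counts and 25 without K562 replicate 1, against 11. The range over single replicates left out was 10 to 25. In K/VP.5 against K562, 5 members passed 2-fold with at least 1 CPM in at least 4 samples, against 11, as H1-6, H3C1, H3C6 and H1-1 were no longer tested and H3C12 and H2BC13 lay just under 2-fold (-0.98 and -0.99). That count ranged from 8 to 13 over single replicates left out. No named member changed sign. Of the repeats for named members, 530 kept their side of the threshold and 17 did not. Calls were lost for H1-3 and H2BC3 against K562 and for H2BC6 and H3C6 in K562/SSedit-2 against K/VP.5, where adjusted p reached 0.288. The cause was not tested. Without H1-2, the member of highest count, the summed level was 11862 CPM for K/VP.5 (13393 with it) and 14965 for K562/SSedit-2 (16414 with it).

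A fit blocked on replicate number passed 37 members in K/VP.5 against K562 and 9 with 2-fold, against 32 and 11 (27.9% of all genes then higher and 27.2% lower), and 33 in K562/SSedit-2 against K/VP.5 and 8 with 2-fold, against 30 and 7 (27.5% and 29.2%). The block lost no call among all members. In these comparisons not all samples of equal number deviated together, with correlations of -0.003 to 0.269 and -0.095 to 0.161. The 13 members of lowest count could not be tested at this depth.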
